A study of Mus musculus with 8 samples.

Results

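The type I interferon response genes described here are 47 genes named by symbol, among the 52459 rows of the deposited gene count table. They were chosen as a list and matched by symbol in all 8 libraries. All 47 were found, and 45 of them are among the 12137 genes that had enough counts to be tested; Ifit3b and Cmpk2 were left out by the filter on low counts, with at most 8 and 18 counts in any library. Each library is RNA of splenic leukaemia cells from 1 moribund mouse of the genotype given as RTA shTet2. All groups share the same leukaemia: cKit+ marrow cells of C57BL/6J mice carried a retrovirus with AE9a, a truncated RUNX1-RUNX1T1 fusion protein, and a hairpin against Tet2 that doxycycline (DOX) switches on. Tet2 encodes a dioxygenase that oxidises 5-methylcytosine in DNA. The Tet2-restored group (-DOX, PBS) has mice 21 and 23, the ascorbate group (+DOX, ascorbate) mice 28 and 30, and the PBS knockdown group (+DOX, PBS) mice 16, 17 and 19; these 7 are secondary transplants. Mouse 12 is the only primary transplant (+DOX) and its library has no replicate. Recipients were C57BL/6J mice of 6 to 8 weeks, lethally irradiated, that received 50000 leukaemia cells together with 500000 wild-type support marrow cells, so normal blood cells were present in the same hosts. Removal of DOX and restoration of Tet2 cannot be told apart, and the hairpin and AE9a are carried by every mouse, so no library shows these genes without them. The p-values measure the spread between mice of a group.

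Type I interferons bind the receptor made of IFNAR1 and IFNAR2, and the receptor-bound kinases JAK1 and TYK2 then signal to STAT2. Together with IRF9 it is part of a complex that binds interferon-stimulated response elements in the promoters of target genes, IRF7 among them, which drives further interferon and target gene transcription. The products include sensors of foreign RNA, enzymes that block translation or degrade RNA, and ubiquitin-like modifiers, and myeloid cells are known to keep a low tonic level of this response without infection.

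Total counts ran from 18.1 M to 27.1 M in the secondary libraries and were 34.2 M in the primary one, and levels are CPM, counts scaled to a common library size of 1 M with TMM factors. Tet2 itself had 14.1 and 23.0 CPM in the Tet2-restored mice 21 and 23, 13.4 and 11.7 CPM in the ascorbate mice 28 and 30, 9.46 CPM in the primary mouse and 12.6 to 13.5 CPM in the PBS knockdown mice. Mouse 21 thus stood close to the knockdown range, so directions for the library labelled Tet2-restored rest on its label. Mitochondrial genes took 9.495% and 14.5% of counts in Tet2-restored mice 21 and 23, 17.1% and 9.73% in ascorbate mice 28 and 30, 5.16% in primary mouse 12 and 9.09% to 11.4% in the PBS knockdown mice. Deviations from the PBS knockdown mean also followed transcript length across the 12137 genes, which are not independent replicates, with a Spearman rho of -0.46 in mouse 21, -0.28 in mouse 23, -0.30 in mouse 28, -0.12 in mouse 30, 0.33 in primary mouse 12, and 0.37, -0.35 and -0.06 in PBS knockdown mice 16, 17 and 19. The members as a list had a median length percentile of 49.4, which does not describe single members. Herc6, Parp14 and Ifih1 have 9292, 9306 and 8165 exonic bases, and Ifi27l2a, Ifitm3 and Isg15 have 463, 678 and 756.

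RefSeq promoter windows of 300 bases (250 before to 50 after the transcription start, GRCm38.p6) were matched by symbol for 36 of the 47 members. The core of the interferon-stimulated response element, searched as GAAANNGAAA on both strands with overlapping matches counted, was present in at least 1 window of 19 of these 36 members (52.8%), against 1079 of 27025 genes with a window (3.99%). Of those 19 members, 10 held the core at least 2 times in a window and 9 held it 1 time. The gamma-activated site, searched as TTCCNGGAA, occurred in 2 of the 36 members (5.6%), Ifit2 and Bst2, against 1.35% of genes. The windows below are those of the members that the results turn on, with the core in capitals and each read 5′ to 3′ along the gene's own strand. Isg15 (chr4:156200769-156201068, minus strand) has 3 overlapping cores whose first bases lie 78, 72 and 66 bases before the start. Ifit1 (chr19:34640639-34640938, plus strand) has cores that begin 104 and 85 bases before the start, both read on the opposite strand. Eif2ak2 (chr17:78882523-78882822, minus strand) has 1 core that begins 19 bases after the start. Trim30a (chr7:104465144-104465443, minus strand) and Trim30d (chr7:104507800-104508099, minus strand) each have 1 core on the opposite strand, 36 and 41 bases before the start. Their windows are 93.6% identical over 295 aligned bases. Parp12 (chr6:39118300-39118599, minus strand) and Ifit2 (chr19:34550444-34550743, plus strand) have no core in the window, which says only that these letters are absent from these 300 bases.
Isg15: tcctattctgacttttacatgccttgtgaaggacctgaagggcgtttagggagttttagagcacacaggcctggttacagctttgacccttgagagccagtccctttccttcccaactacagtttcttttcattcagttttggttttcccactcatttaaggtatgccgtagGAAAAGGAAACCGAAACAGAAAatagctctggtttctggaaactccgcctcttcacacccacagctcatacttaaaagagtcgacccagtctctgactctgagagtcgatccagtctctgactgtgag
Ifit1: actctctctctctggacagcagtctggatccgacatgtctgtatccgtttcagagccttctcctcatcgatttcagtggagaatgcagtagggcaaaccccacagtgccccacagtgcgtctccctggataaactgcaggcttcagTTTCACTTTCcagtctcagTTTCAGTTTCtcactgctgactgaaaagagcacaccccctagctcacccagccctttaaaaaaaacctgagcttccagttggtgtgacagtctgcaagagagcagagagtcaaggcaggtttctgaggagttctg
Eif2ak2: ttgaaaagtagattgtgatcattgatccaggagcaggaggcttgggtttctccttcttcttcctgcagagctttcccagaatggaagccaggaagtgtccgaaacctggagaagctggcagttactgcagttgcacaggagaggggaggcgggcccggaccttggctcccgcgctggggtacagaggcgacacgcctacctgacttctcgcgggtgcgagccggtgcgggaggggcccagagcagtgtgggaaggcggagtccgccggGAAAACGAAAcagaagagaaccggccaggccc
Trim30a: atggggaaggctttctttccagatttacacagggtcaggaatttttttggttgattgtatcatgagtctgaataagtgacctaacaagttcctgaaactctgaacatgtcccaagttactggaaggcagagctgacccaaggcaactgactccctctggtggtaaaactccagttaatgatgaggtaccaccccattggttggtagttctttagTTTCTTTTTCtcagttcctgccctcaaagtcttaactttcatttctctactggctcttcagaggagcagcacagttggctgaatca
Trim30d: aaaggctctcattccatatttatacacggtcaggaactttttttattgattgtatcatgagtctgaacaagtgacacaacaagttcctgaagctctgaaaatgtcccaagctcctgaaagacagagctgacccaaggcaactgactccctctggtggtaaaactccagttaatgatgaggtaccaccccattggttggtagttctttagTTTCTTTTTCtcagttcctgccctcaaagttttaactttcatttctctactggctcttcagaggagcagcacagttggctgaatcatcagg
Parp12: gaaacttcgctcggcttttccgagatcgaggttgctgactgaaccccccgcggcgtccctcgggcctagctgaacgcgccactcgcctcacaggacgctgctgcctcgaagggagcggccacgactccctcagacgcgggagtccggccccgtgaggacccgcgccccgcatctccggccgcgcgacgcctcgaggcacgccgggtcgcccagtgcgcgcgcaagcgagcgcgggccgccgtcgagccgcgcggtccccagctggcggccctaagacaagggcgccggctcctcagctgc
Ifit2: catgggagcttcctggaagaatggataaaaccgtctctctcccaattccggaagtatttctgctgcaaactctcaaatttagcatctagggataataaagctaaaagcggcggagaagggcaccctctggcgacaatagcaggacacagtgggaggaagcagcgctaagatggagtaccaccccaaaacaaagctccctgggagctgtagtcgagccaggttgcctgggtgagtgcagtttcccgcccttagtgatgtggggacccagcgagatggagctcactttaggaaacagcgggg

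Levels compared between genes are given per transcript length, as the FPKM values of the authors averaged over the 3 PBS knockdown libraries. On that scale Ifitm3, a membrane protein that restricts viral entry, Lgals3bp, a secreted glycoprotein, and Isg15, the ubiquitin-like modifier, were highest at 294, 284 and 279 FPKM. Irf7, Bst2 and Ifi27l2a lay between 121 and 171 FPKM. Of the 45 tested members 39 reached 1 FPKM in at least 2 libraries, and Mx1, Zbp1, Ifi44, Mx2, Ifit3 and Rsad2 had means of 0.0833 to 0.623 FPKM. Their folds rest on few counts. Most of these genes were thus expressed at clear levels in the PBS knockdown libraries.

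**Figure D1:**
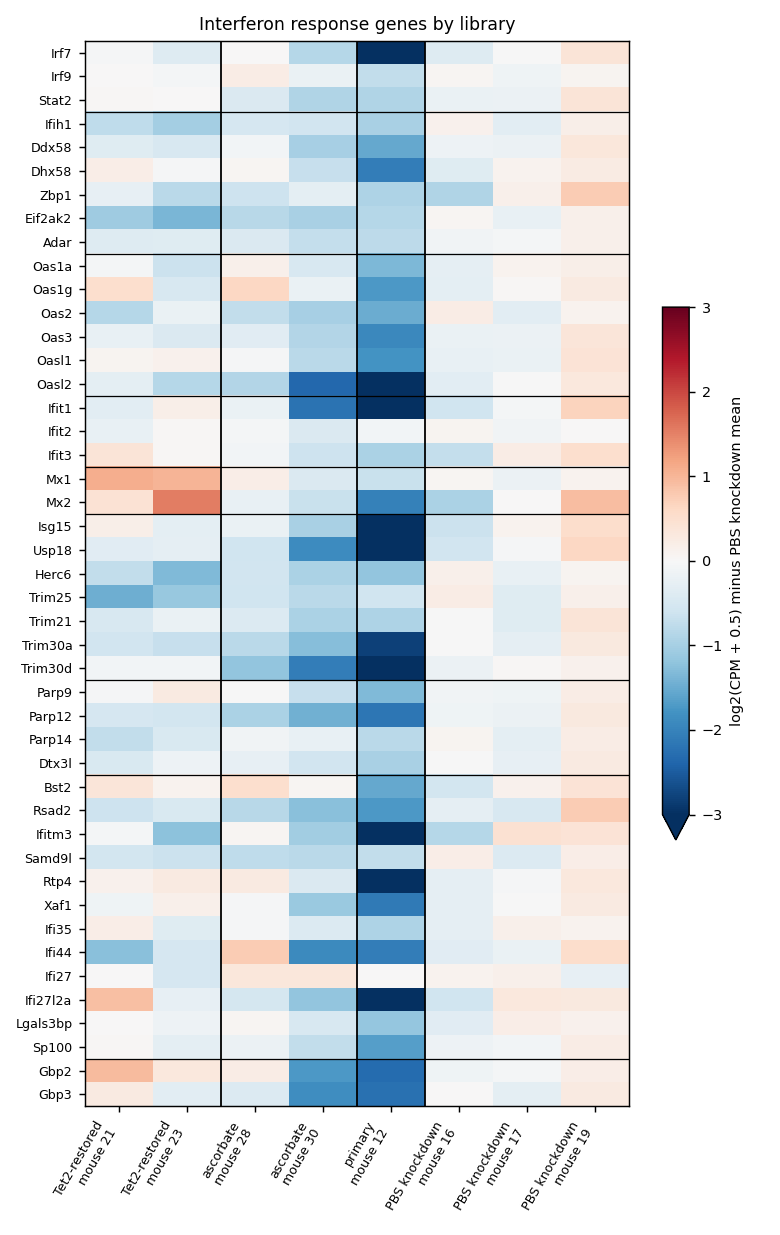
Level of the 45 tested members in each of the 8 libraries, as log2(CPM + 0.5) minus the mean of the 3 PBS knockdown libraries, with rows ordered by the role of the gene and columns by group; blue is lower and red is higher. The primary library (mouse 12) is the bluest column with a median of -1.55, and mouse 30 (-0.82) is bluer than mouse 28 (-0.20), the other ascorbate library.

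Under ascorbate 4 members fell and none rose (0 of 45, against 1.09% of all genes called higher). They were Parp12, a mono-ADP-ribosyltransferase, Trim30a and Trim30d, paralogous TRIM ubiquitin ligase family proteins of rodents, and Eif2ak2, which encodes PKR, the kinase that halts translation when it binds double-stranded RNA. The 4 are 8.89% of the 45 tested members, against 2.86% of all genes tested that were called in either direction (347 of 12137) and 1.77% called lower. A negative fold change was fitted for 41 of the 45, with a median log2 fold change of -0.54 against -0.01 over all genes tested. At an unadjusted p under 0.05 there were 17 members lower (37.8%, against 12.9% of all genes) and 0 higher (against 10.7%).

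Parp12 had 37.0 and 26.2 CPM in the ascorbate mice 28 and 30, against 66.0, 63.2 and 88.6 CPM in PBS knockdown mice 16, 17 and 19. Both ascorbate libraries lay below all 3 PBS knockdown libraries. Its fitted log2 change stood at -1.19, with an SE of 0.22 (edgeR adjusted p 0.0338); it stood at 50.5 and 49.0 CPM in the Tet2-restored mice 21 and 23.

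Trim30d had 6.09 and 3.05 CPM in ascorbate mice 28 and 30, against 12.7, 14.8 and 15.9 CPM in PBS knockdown mice 16, 17 and 19. The groups did not overlap, and mouse 30 was the lower of the ascorbate pair. The fitted log2 change stood at -1.66, with an SE of 0.31 (edgeR adjusted p 0.0348), and the Tet2-restored mice had 13.5 and 13.6 CPM, inside the PBS knockdown range. Trim30a had 119 and 86.8 CPM in ascorbate mice 28 and 30, against 208, 173 and 256 CPM in PBS knockdown mice 16, 17 and 19. Again every ascorbate library was below every PBS knockdown library. Its fitted log2 change stood at -1.04, with an SE of 0.21 (edgeR adjusted p 0.0408), and it had 141 and 129 CPM in Tet2-restored mice 21 and 23. Of the 50-base words in Trim30d transcripts 6.4% also occur in Trim30a, so some reads of the pair are uncertain.

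Eif2ak2 had 85.7 and 76.9 CPM in the ascorbate mice, against 159, 131 and 169 CPM in the PBS knockdown mice. The ascorbate libraries were close to each other and both lay under the knockdown range. The fitted log2 change stood at -0.90, with an SE of 0.18 (edgeR adjusted p 0.0376). The members with the next smallest p did not pass: Samd9l, a translation repressor that restricts viruses, had 144 and 138 CPM in ascorbate mice 28 and 30, against 280, 184 and 280 CPM in PBS knockdown mice 16, 17 and 19 (log2 fold change -0.80, SE 0.20, edgeR adjusted p 0.0631). Oas2, an oligoadenylate synthetase that activates the nuclease RNase L, had 90.3 and 75.2 CPM against 175, 122 and 162 CPM (-0.88, SE 0.24, edgeR adjusted p 0.0766).

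The calls depended on single mice. Without mouse 16 or 19 there were 0 members called, against 0.0415% and 0.125% of all genes. Without mouse 17 Samd9l and Trim30a were called (4.44%, against 0.722% of all genes). With all 7 libraries 2.86% of all genes were called, so calls also became fewer among genes in general. Leaving out mouse 28 or 30 leaves 1 ascorbate library. The fold changes themselves stayed negative: without mouse 30 that of Parp12 was -0.95 (edgeR adjusted p 0.145) and that of Trim30d -1.22 (edgeR adjusted p 0.130). With an offset for transcript length and GC content, Trim30a did not pass (-0.78, edgeR adjusted p 0.0603), and on library totals the median of all genes moved by -0.11.

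By role, all 7 genes of ISG15 conjugation, ubiquitin ligases and TRIM proteins had negative values under ascorbate (median -0.76), with 2 called. Over all genes tested 51.01% had negative values and 1.77% were called lower. All 6 sensors and RNA-binding effectors were negative (median -0.55), with 1 called, and all 4 of the PARP group (median -0.35), with 1 called. In the OAS family 5 of 6 were negative (median -0.49), in the IFIT family 3 of 3 (-0.70), among the membrane and other effectors 10 of 12 (-0.32), and both guanylate-binding proteins and both MX genes were negative, with none called. Both ascorbate libraries lay below every PBS knockdown library for 18 of the 45 members (40%), against 24.4% of all genes tested, and above every one for 1 member (2.22% against 21.3%). That 1 was Ifi27, a mitochondrial protein also named ISG12, with 113 and 112 CPM in ascorbate mice 28 and 30 against 95.5, 98.3 and 75.1 CPM in PBS knockdown mice 16, 17 and 19 (0.34, SE 0.19, edgeR adjusted p 0.307).

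**Figure D2:**
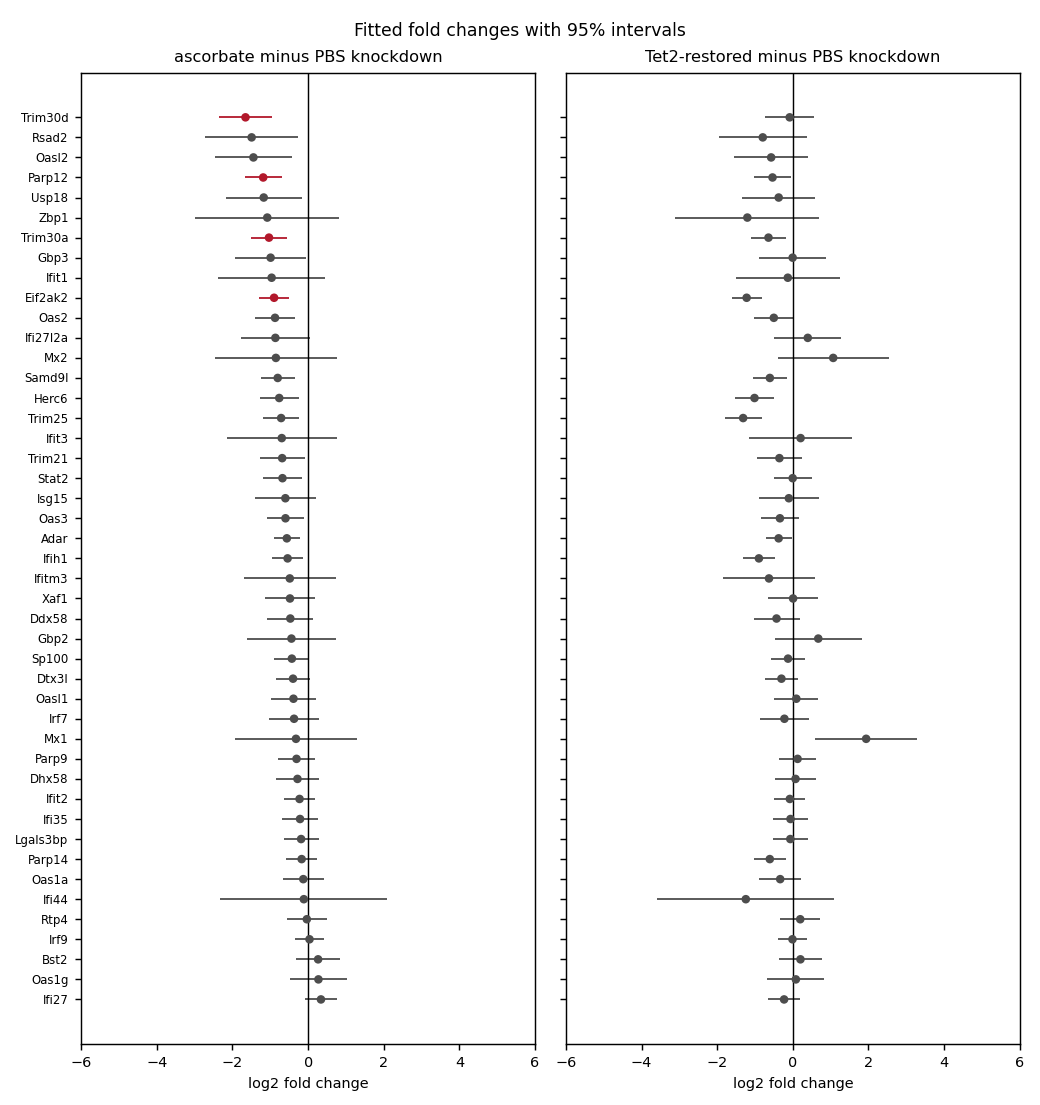
Fitted log2 fold changes of the 45 tested members with 95% intervals, for ascorbate minus PBS knockdown (left) and Tet2-restored minus PBS knockdown (right), in the order of the left panel; red marks an edgeR adjusted p under 0.05. In the left panel 41 points lie below 0 and 4 are red, and in the right panel 33 lie below 0 and none is red; both panels share the 3 PBS knockdown libraries.

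Markers of macrophages, a normal spleen cell that could be carried along, moved with the ascorbate comparison. Their summed level over 12 genes was 22.8 and 23.6 CPM in the ascorbate mice 28 and 30, 27.9 and 11.0 CPM in the Tet2-restored mice 21 and 23, 21.1 CPM in the primary mouse, and 35.7 to 70.3 CPM in the PBS knockdown mice. Of 10 tested macrophage markers 10 were negative under ascorbate (against 51.01% of all genes) and 3 of them called lower (30%, against 1.77%). In the Tet2-restored group 10 of 10 were negative (against 50.15% of all genes) with none called (against 0%). Marco had at most 4 counts in any library, and 0 in ascorbate mice 28 and 30, primary mouse 12 and PBS knockdown mouse 17. Cd163 had 1 and 0 counts in ascorbate mice 28 and 30, 3 and 0 in Tet2-restored mice 21 and 23, 16 in primary mouse 12, and 9, 25 and 12 in PBS knockdown mice 16, 17 and 19. Summed erythroid markers were 9804 and 5370 CPM in ascorbate mice 28 and 30, against 5196 to 12250 CPM in the PBS knockdown mice. In the same order, late neutrophil markers summed to 5.97 and 11.71 CPM against 0.323 to 8.14 CPM. Leukaemia blast markers had 240.5 and 201.6 CPM against 159 to 264 CPM. B cell markers had 3.105 and 3.304 CPM, below the 3.748 to 6.785 CPM of the PBS knockdown mice. T and NK cell markers had 5.134 and 5.73 CPM, above the 1.575 to 3.171 CPM of the PBS knockdown mice. Nkg7 made up most of this sum in mice 28 and 30, at 3.34 and 5.19 CPM, and did not pass (edgeR adjusted p 0.104). Endothelial and stromal markers summed to 3.761 and 4.768 CPM, against 3.863 to 8.504 CPM. Siglech, which marks the interferon-producing plasmacytoid dendritic cell, had 0 counts in every library but that of mouse 19. The summed level of the 6 markers of that cell was 7.64 and 7.86 CPM in ascorbate mice 28 and 30. It was 23.6 and 19.9 CPM in Tet2-restored mice 21 and 23 and 16.4 CPM in primary mouse 12, against 7.40 to 13.9 CPM in the PBS knockdown mice. Ccr9 and Tcf4 made up nearly all of this sum. Ccr9 had 14.003 and 18.005 CPM in Tet2-restored mice 21 and 23, against 4.73 to 5.98 CPM in the PBS knockdown mice. Tcf4 had 8.73 and 1.81 CPM, against 1.56 to 8.72 CPM, and Siglech and Klk1 had 0 counts in both Tet2-restored mice. The higher sum in the Tet2-restored mice thus rests mainly on Ccr9 and does not show more cells of this type. The part of other cells in these differences was not tested, and in bulk RNA fewer cells of a type and less RNA per cell cannot be told apart.

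In the Tet2-restored group no member was called, and no gene at all was called by the edgeR test (0 of 12137, 0%). The lowest adjusted p among the members was 0.0502, held by Eif2ak2, Trim25 and Ifih1, 3 genes of RNA sensing with negative values. It was also the lowest over all 12137 genes, and genes outside the list, such as the markers Vcam1 and Ccr9, held it too. Of the 45 members 33 had a negative fold change, with a median of -0.22 against -0.002 over all genes tested. The median was -0.019 without PBS knockdown mouse 19, with 28 of 45 negative, and -0.36 without PBS knockdown mouse 16. At an unadjusted p under 0.05 there were 9 members lower (20%, against 15.2% of all genes) and 1 higher (2.22%, against 14.1%), and the share lower was near that of all genes. The DESeq2 Wald test called 7 members lower (Eif2ak2, Herc6, Ifih1, Parp14, Samd9l, Trim25 and Trim30a), 15.6% of those tested against 15.9% of all genes (1933), and limma voom called 0.

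Eif2ak2 had 72.0 and 58.4 CPM in the Tet2-restored mice 21 and 23, against the PBS knockdown levels given above. Both libraries were below all 3 PBS knockdown libraries, and its fitted log2 change stood at -1.22, with an SE of 0.18 (edgeR adjusted p 0.0502). Trim25, a ubiquitin ligase that acts on RIG-I, had 61.1 and 77.5 CPM in Tet2-restored mice 21 and 23, 113 and 96.6 CPM in ascorbate mice 28 and 30, 112 CPM in primary mouse 12, and 198, 133 and 189 CPM in PBS knockdown mice 16, 17 and 19. The Tet2-restored pair was lowest of all groups. The fitted log2 change stood at -1.31, with an SE of 0.22 (edgeR adjusted p 0.0502).

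Ifih1 encodes MDA5, a sensor of long double-stranded RNA. It had 120 and 99.6 CPM in Tet2-restored mice 21 and 23, 144 and 136 CPM in ascorbate mice 28 and 30, 104 CPM in primary mouse 12, and 223, 164 and 228 CPM in PBS knockdown mice 16, 17 and 19. Every other library lay below the PBS knockdown range. Its log2 fold change in the Tet2-restored group was -0.90 (SE 0.19, edgeR adjusted p 0.0502), and -0.54 with the length and GC offset. Ddx58, which encodes RIG-I, the sensor of RNA with a 5′ triphosphate, had 123 and 114 CPM in Tet2-restored mice 21 and 23, 151 and 78.6 CPM in ascorbate mice 28 and 30, 54.1 CPM in primary mouse 12, and 142, 140 and 199.99 CPM in PBS knockdown mice 16, 17 and 19. Here the ascorbate libraries fell on either side of the lowest PBS knockdown library, and the fitted log2 change stood at -0.43, with an SE of 0.27 (edgeR adjusted p 0.313) in the Tet2-restored group.

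Herc6, the ligase that attaches ISG15 in mice, had 28.1 and 18.5 CPM in Tet2-restored mice 21 and 23, 31.2 and 24.1 CPM in ascorbate mice 28 and 30, 20.3 CPM in primary mouse 12, and 51.9, 39.98 and 50.02 CPM in PBS knockdown mice 16, 17 and 19. The PBS knockdown libraries were highest, and the log2 fold change of the Tet2-restored group was -1.01 (SE 0.23, edgeR adjusted p 0.0538), or -0.60 with the length and GC offset. Herc6 shares 13.7% of its exonic bases with a predicted gene. Parp14, another mono-ADP-ribosyltransferase, had 113 and 137 CPM in Tet2-restored mice 21 and 23, 177 and 161 CPM in ascorbate mice 28 and 30, 107 CPM in primary mouse 12, and 201, 154 and 220 CPM in PBS knockdown mice 16, 17 and 19. The Tet2-restored pair lay below the knockdown range and the ascorbate pair within it; the fitted log2 change stood at -0.61, with an SE of 0.19 (edgeR adjusted p 0.0802), or -0.28 with the offset.

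Mx1, a dynamin-like GTPase of which C57BL/6 mice carry a defective allele, was the member with the smallest p among those with a positive value in the Tet2-restored group. Its counts were 29 and 22 in Tet2-restored mice 21 and 23, 7 and 2 in ascorbate mice 28 and 30, 0 in primary mouse 12, and 8, 5 and 10 in PBS knockdown mice 16, 17 and 19. The Tet2-restored libraries were above all others, at levels of 1.19 and 1.10 CPM against 0.205 to 0.360 CPM in the PBS knockdown mice, and the fitted log2 change stood at 1.94, with an SE of 0.60 (edgeR adjusted p 0.0817). Mx1 and Gbp2, a guanylate-binding GTPase, were the members for which both Tet2-restored libraries exceeded every PBS knockdown library (2 of 45, 4.44%, against 24.4% of all genes). For 12 members both lay below every PBS knockdown library (26.7%, against 24.9% of all genes).

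Single mice mattered in this comparison as well. Without mouse 21, whose Tet2 level was near the knockdown range, 4 members were called lower: Eif2ak2 (-1.37, edgeR adjusted p 0.0166), Trim25, Ifih1 and Herc6. They were 8.7% of the members tested in that fit, against 13.3% of all genes (1692 of 12760). Without any other library 0 members were called.

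Set directly against the ascorbate group, the Tet2-restored group differed in no member that passed, and in 1 gene of all 12137 (0.00824%) by the edgeR test. The median log2 difference of the members was 0.26 against 0.01 over all genes, with 32 of 45 positive. At an unadjusted p under 0.05 there were 6 members higher (13.3%, against 8.85% of all genes) and 2 lower (4.44%, against 7.35%). The DESeq2 Wald test called 2 members, Trim30d and Ifi27l2a (4.44%, against 3.67% of all genes, a near share). Limma voom called 0 members. Trim30d, with the levels given above, had the smallest p, at a log2 fold change of 1.57 (SE 0.33, 95% interval 0.83 to 2.31, edgeR adjusted p 0.130). Ifi27l2a, a small mitochondrial protein, had 145 and 64.4 CPM in Tet2-restored mice 21 and 23, against 53.4 and 33.5 CPM in ascorbate mice 28 and 30. The Tet2-restored libraries were the higher ones, and the gap between the groups was smaller than the gap within either (1.26, SE 0.44, edgeR adjusted p 0.232). The other 4 by the same rule were Mx1 (2.26, edgeR adjusted p 0.209), Parp12 (0.65, edgeR adjusted p 0.233), Stat2 (0.67, edgeR adjusted p 0.239) and Ifi27 (-0.57, edgeR adjusted p 0.243). These p-values miss the threshold and do not show that the members respond alike: the 95% interval of Eif2ak2 ran from -0.74 to 0.10 and that of Trim30a from -0.11 to 0.89. The median difference was 0.04 without mouse 30 and 0.64 without mouse 28.

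**Figure D3:**
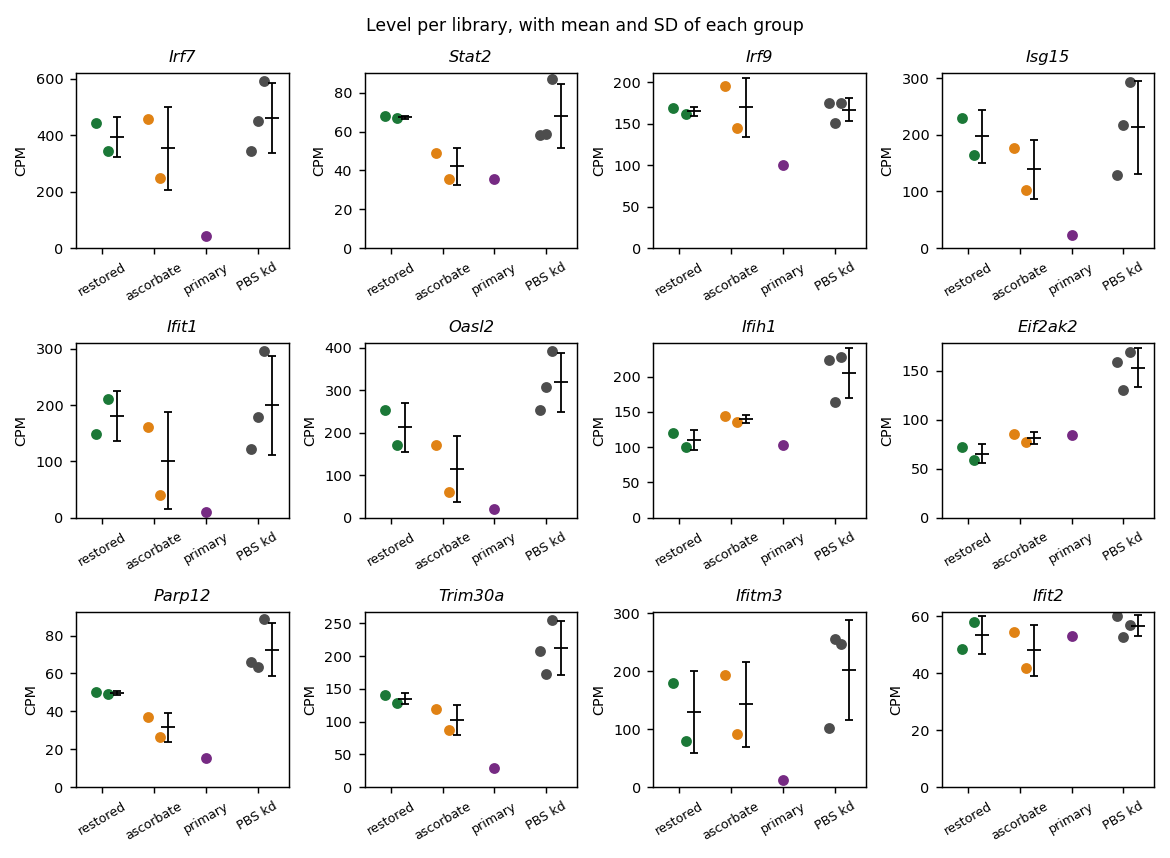
Level in CPM of 12 members in each library (points), with the mean and SD of each group of at least 2 libraries (bars), for Tet2-restored, ascorbate, primary and PBS knockdown mice from left to right. Eif2ak2, Parp12 and Trim30a show all Tet2-restored and ascorbate points below the PBS knockdown points, Irf7, Isg15 and Ifitm3 show overlap of the secondary groups and a low primary point, and Ifit2 shows overlap of all 4.

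Of the transcription factors, Irf9 varied least. It had 169 and 161 CPM in the Tet2-restored mice, 195 and 144 CPM in the ascorbate mice, 100.1 CPM in the primary mouse, and 175, 151 and 175 CPM in the PBS knockdown mice. The 3 secondary groups overlapped, and the primary library stood below the rest. Stat2 had 67.9 and 66.9 CPM in Tet2-restored mice 21 and 23, 49.0 and 35.3 CPM in ascorbate mice 28 and 30, 35.4 CPM in primary mouse 12, and 58.0, 58.8 and 87.3 CPM in PBS knockdown mice 16, 17 and 19. The ascorbate pair lay below the knockdown range and the Tet2-restored pair within it, and the ascorbate difference did not pass (-0.68, SE 0.23, edgeR adjusted p 0.122). Irf7 had 444 and 344 CPM in Tet2-restored mice 21 and 23, 457 and 250 CPM in ascorbate mice 28 and 30, 43.0 CPM in primary mouse 12, and 344, 451 and 592 CPM in PBS knockdown mice 16, 17 and 19. Its secondary groups overlapped, and the primary library stood far below all of them.

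The primary library, a single value per gene with no test, had lower levels of these genes than the PBS knockdown libraries nearly throughout. It lay below every PBS knockdown library for 43 of the 45 members (95.6%, against 28% of all genes tested), and below all 7 secondary libraries for 36 (80%, against 18%). It was more than 2-fold below the PBS knockdown mean for 32 members (71.1%, against 6.62%), more than 4-fold for 20 (44.4%, against 1.73%), and more than 10-fold for 8 (17.8%, against 0.346%), with genes at 0 counts set to a limit of 3 counts; it was above every PBS knockdown library for 0 (against 34.4%) and more than 2-fold above for 0 (against 3.41%). The median of log2(CPM + 0.5) minus the PBS knockdown mean was -1.55 over the members and 0.02 over all genes tested. With 1 library, transplant generation, mouse and library cannot be told apart. Cell markers differed in the primary library as well. The summed level of 6 late neutrophil markers was 42.2 CPM in the primary mouse, against 0.323 to 8.14 CPM in the PBS knockdown mice, with Ly6g, which defines that cell, at 2 counts in the primary mouse and 0 in the PBS knockdown mice. The 4 leukaemia blast markers (Kit, Cd34, Runx1t1 and Mpo) summed to 426 CPM in the primary mouse, against 159 to 264 CPM, and Cd34, a stem and progenitor cell surface protein, had 20.2 CPM, against 2.71, 1.85 and 0.865 CPM in PBS knockdown mice 16, 17 and 19. Their part in the member levels was not tested.

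Ifit1, which binds viral RNA caps, had 149 and 211 CPM in Tet2-restored mice 21 and 23, 162 and 40.0 CPM in ascorbate mice 28 and 30, 10.7 CPM in the primary mouse 12, and 123, 179 and 296 CPM in PBS knockdown mice 16, 17 and 19. The primary library was lowest and mouse 30 next, while mouse 28 lay inside the knockdown range. The PBS knockdown mean was 18.6-fold the primary level. Isg15 had 230.3 and 164 CPM in Tet2-restored mice 21 and 23, 176 and 102 CPM in ascorbate mice 28 and 30, 23.6 CPM in primary mouse 12, and 130, 217 and 293 CPM in PBS knockdown mice 16, 17 and 19. The secondary groups overlapped apart from mouse 30, and the PBS knockdown mean was 9.06-fold the primary level.

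Ifitm3 had 180 and 79.4 CPM in Tet2-restored mice 21 and 23, 194 and 90.9 CPM in ascorbate mice 28 and 30, 13.1 CPM in primary mouse 12, and 103, 256 and 247 CPM in PBS knockdown mice 16, 17 and 19. Each secondary group held 1 library much lower than the rest, and the PBS knockdown mean was 15.5-fold the primary level. Oasl2, an OAS-like protein, had 254 and 172 CPM in Tet2-restored mice 21 and 23, 170 and 60.6 CPM in ascorbate mice 28 and 30, 19.8 CPM in primary mouse 12, and 253, 309 and 393 CPM in PBS knockdown mice 16, 17 and 19. Only mouse 21 among the other libraries reached the knockdown range. It was named after its values were seen, as were Ifit2 and Gbp2.

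Larger ratios of the PBS knockdown mean to the primary level were those of Ifi27l2a (22.9-fold, with 3.48 CPM in primary mouse 12) and Trim30d (62.2-fold, with 8 counts in primary mouse 12). Mx1 and Mx2 had 0 counts in the primary library, which against a limit of 3 counts makes the PBS knockdown mean at least 3.4-fold and at least 21.3-fold higher. The members that were within 2-fold of the PBS knockdown mean were Irf9, Stat2, Ifih1, Eif2ak2, Adar, Ifit2, Trim25, Trim21, Parp14, Dtx3l, Samd9l, Ifi35 and Ifi27. Irf9 and Stat2, which encode subunits of the complex that reads the response element, are thus among those with the smaller differences.

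Ifit2 and Ifi27 were the 2 members inside the PBS knockdown range in the primary library. Ifit2 had 48.6 and 58.0 CPM in Tet2-restored mice 21 and 23, 54.4 and 41.7 CPM in ascorbate mice 28 and 30, 53.1 CPM in primary mouse 12, and 60.2, 52.8 and 56.8 CPM in PBS knockdown mice 16, 17 and 19. No group stood apart for this gene. Ifi27 had 89.3 and 62.6 CPM in Tet2-restored mice 21 and 23 and 89.0 CPM in primary mouse 12. Against its knockdown levels given above, mouse 23 was below the range, and mice 21 and 12 were within it. Ifit3, from a gene next to Ifit1 and Ifit2, was low everywhere, with 33 and 19 counts in Tet2-restored mice 21 and 23, 14 and 10 in ascorbate mice 28 and 30, 8 in primary mouse 12, and 9, 28 and 42 in PBS knockdown mice 16, 17 and 19; 51.2% of the 50-base words of its transcripts also occur in Ifit3b, so its level is uncertain, as is that of Oas1a, with 57.6% shared with Oas1g.

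**Figure D4:**
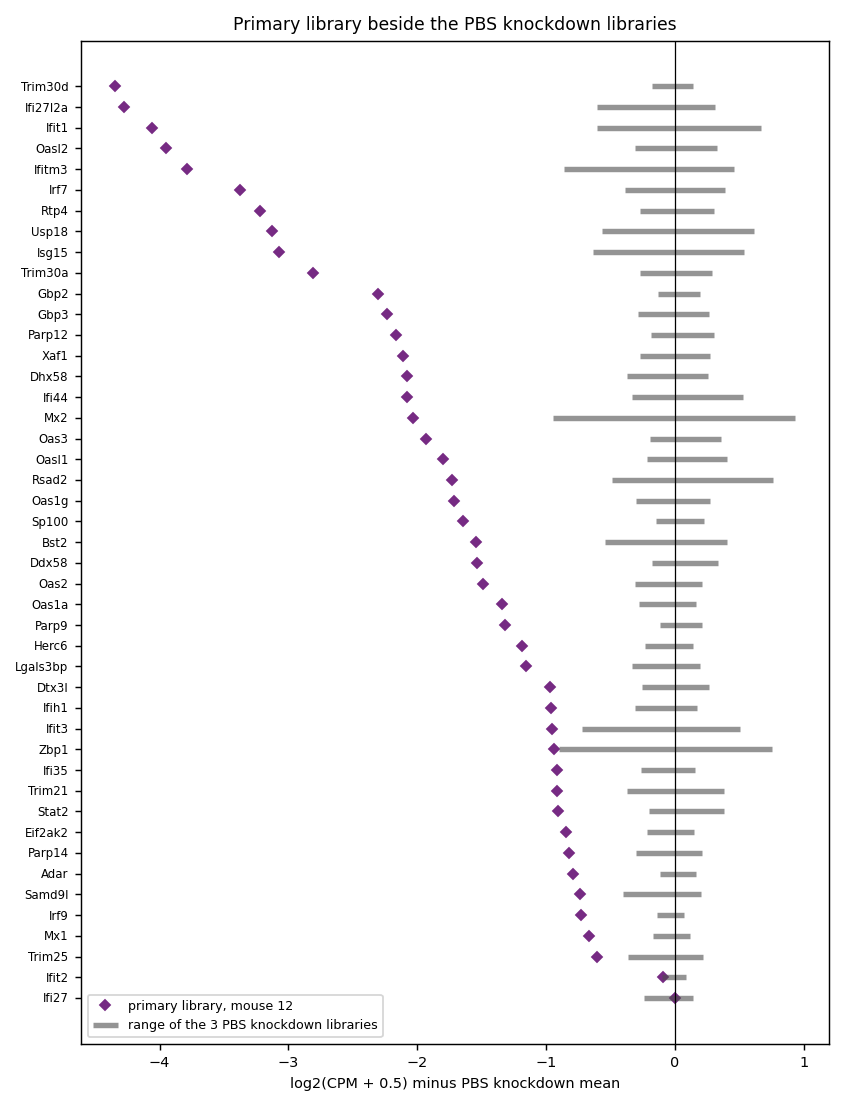
Level of each of the 45 tested members in the primary library (diamonds), as log2(CPM + 0.5) minus the PBS knockdown mean, beside the range of the 3 PBS knockdown libraries (bars), ordered from the lowest primary value. For 43 members the diamond lies left of the bar, and Ifit2 and Ifi27 lie within it.

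Members with the response element core in a promoter window had a median difference in the primary library of -1.72 (18 tested members, from -4.35 to -0.85), and members whose window lacked it -1.17 (16 tested members, from -3.95 to -0.09). The medians of the fitted log2 fold changes were -0.64 with the core and -0.41 without it under ascorbate, and -0.23 with it and -0.26 without it in the Tet2-restored group. The ranges of the members with and without the core overlapped widely, and the split was not tested.

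Libraries of 1 group also differed from each other in these genes. Mouse 30 was below mouse 28 for 44 of the 45 members (97.8%, against 46.1% of all genes tested), Zbp1 being the exception, and it was the lowest of the 7 secondary libraries for 32 (71.1%, against 12.9%). The ratio of mouse 28 to mouse 30 was 4.05 for Ifit1, 2.81 for Oasl2, 4.04 for Gbp2, 1.06 for Ifih1 and 1.12 for Eif2ak2. Among the PBS knockdown mice, mouse 19 was highest for 36 members (80%, against 23.4%), and it was the highest of all 7 secondary libraries for 28 (62.2%, against 7.37%). The member medians of log2(CPM + 0.5) minus the PBS knockdown mean were -0.09 and -0.30 in Tet2-restored mice 21 and 23, -0.20 and -0.82 in ascorbate mice 28 and 30, and -0.19, -0.08 and 0.27 in PBS knockdown mice 16, 17 and 19. Below every PBS knockdown library were 38 members in mouse 30 (84.4%, against 32.8% of all genes) and 18 in mouse 28 (40%, against 39.6%), 17 in mouse 21 (37.8%, against 33.9%) and 21 in mouse 23 (46.7%, against 40.5%). The share in mouse 30 was far from that of all genes, and those in the other 3 libraries were near it. The median fold change under ascorbate was -0.25 without mouse 30 and -0.96 without mouse 28. Bst2, which encodes tetherin, illustrates the overlap: it had 161 and 135 CPM in Tet2-restored mice 21 and 23, 178 and 131 CPM in ascorbate mice 28 and 30, 42.5 CPM in primary mouse 12, and 85.5, 138 and 166 CPM in PBS knockdown mice 16, 17 and 19.

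The rest of the pathway was read from a list of 31 ligands, receptors, signalling and upstream sensing genes, of which 25 were tested. None passed in any of the 3 comparisons, and under ascorbate 3 were higher (12%, against 10.7% of all genes) and 4 lower (16%, against 12.9%) at an unadjusted p under 0.05, with a median of -0.14. In each of the other 2 comparisons there were 3 higher and 3 lower (12% each, against 7.35% to 15.2% of all genes). The smallest p of the list in the Tet2-restored group was that of Tmem173, a gene named after its values were seen. It was higher, with 3.71 and 8.43 CPM in mice 21 and 23, against 0.687 to 1.27 CPM in the PBS knockdown mice (edgeR adjusted p 0.0502). The ligands were at or near 0: Ifnb1 had at most 2 counts and Ifna4 at most 3 in any library, and Ifna1 had 11 counts in the primary library and at most 3 elsewhere. The receptor gene Ifnar1 had 38.0 and 58.1 CPM in Tet2-restored mice 21 and 23, 53.3 and 46.9 CPM in ascorbate mice 28 and 30, 59.1 CPM in primary mouse 12, and 58.3, 47.01 and 51.5 CPM in PBS knockdown mice 16, 17 and 19. The primary library was not low for this gene, unlike for the members. Ifnar2 had 52.8 and 59.6 CPM in Tet2-restored mice 21 and 23, 74.3 and 75.04 CPM in ascorbate mice 28 and 30, 50.6 CPM in primary mouse 12, and 58.9, 49.6 and 51.5 CPM in PBS knockdown mice 16, 17 and 19. The ascorbate pair was highest, a difference that did not pass (0.50, SE 0.16, edgeR adjusted p 0.110).

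Irf3, which starts interferon transcription, had 61.8 and 29.2 CPM in Tet2-restored mice 21 and 23, 34.8 and 37.6 CPM in ascorbate mice 28 and 30, 62.3 CPM in primary mouse 12, and 51.3, 63.6 and 59.3 CPM in PBS knockdown mice 16, 17 and 19; it did not pass under ascorbate (-0.67, SE 0.28, edgeR adjusted p 0.181). Irf1 had 14.3 and 19.4 CPM in Tet2-restored mice 21 and 23, 23.5 and 9.66 CPM in ascorbate mice 28 and 30, 7.72 CPM in primary mouse 12, and 10.7, 13.8 and 14.7 CPM in PBS knockdown mice 16, 17 and 19. Of the 25 tested pathway genes 13 lay in primary mouse 12 below every PBS knockdown library (52%, against 28% of all genes), 7 above every one (28%, against 34.4%) and 5 within the range, with a median of -0.20.

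A further list of 39 interferon-stimulated genes outside the members, 33 of them tested, gave 1 call (3.03% under ascorbate, against 2.86% of all genes). Gbp7, a guanylate-binding GTPase, fell under ascorbate to 92.2 and 83.7 CPM, against 260, 157 and 220 CPM in the PBS knockdown mice (-1.26, SE 0.23, edgeR adjusted p 0.0322). The groups did not overlap, and the Tet2-restored mice had 133 and 103 CPM. The call did not hold without mouse 16, 19, 28 or 30, with edgeR adjusted p from 0.0922 to 0.140. The median of this list was -0.58 under ascorbate, with 25 of 33 negative and 14 lower (42.4%, against 12.9% of all genes) and 2 higher (6.06%, against 10.7%) at an unadjusted p under 0.05. It was -0.21 in the Tet2-restored group, with 21 of 33 negative and 0 called (2 higher, 6.06% against 14.1% of all genes, and 5 lower, 15.2% against 15.2%, at an unadjusted p under 0.05). In the primary library 31 of the 33 lay below every PBS knockdown library (93.9%, against 28% of all genes) and 18 were more than 2-fold below its mean (54.5%, against 6.62%), with a median of -0.88.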

How the data were processed

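RNA was measured by poly(A)-enriched sequencing in 8 libraries, each from 1 mouse. One table deposited by the authors holds raw counts, whole numbers for each gene symbol that were not normalized, and the other the authors' FPKM values for the same libraries. STAR, featureCounts and DESeq2 were used with mm10 (GRCm38), per the submitters' processing notes; versions, settings and strand are not given in the sources used here, so reads of overlapping genes cannot be told apart (15 of 47 members share exonic bases with another gene in GENCODE vM21). Total counts of 18.1 M to 34.2 M set the counting error, and limits from 0 counts (3 counts) cover that error only.

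Counts were tested in R 4.3.3 with edgeR 4.0.16 (robust quasi-likelihood test), with TMM factors, its filter with a minimum count of 10, 1 fit of the 7 secondary libraries in 3 groups, and Benjamini-Hochberg adjustment over all 12137 genes tested at 0.05. The primary library entered no test. CPM levels use TMM factors over all 8 libraries, with 0.5 added on log2 scales. The scripts were tested on simulated data. Libraries of a group differed by more than counting noise (chi-square per degree of freedom from 34.8 to 85.3).

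Alternatives were DESeq2 size factors or library totals in edgeR, the DESeq2 1.42.0 Wald test, limma 3.58.1 (voom with quality weights, and trend on log2 FPKM with 0.1 or 1 added), other filters, other sets of libraries, a length and GC offset, and each library left out. The members and lists were chosen with earlier results of these data known. By rule, values per library are given for members past the threshold, the 6 with the smallest p in each comparison, the transcription factors and 9 further members fixed by name (Isg15, Ifit1, Ifit3, Mx1, Oas2, Ifih1, Ddx58, Bst2 and Ifitm3), and, of the other lists, genes past the threshold and Ifnar1, Ifnar2, Irf1 and Irf3; 1 further gene under this rule is not reported here. Promoter windows come from RefSeq (GRCm38.p6); windows of 11 members were not used here.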

Additional observations from a re-analysis of the deposited data

How the results depend on the processing

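Every direction of the fold changes printed for single genes and of the member medians was kept under the alternatives run, and of the values of single genes 393 stayed on their side of the threshold, 44 came to pass it and 24 no longer passed it. For the Tet2-restored group against PBS knockdown, DESeq2 size factors gave 276 genes and 3 members called, the DESeq2 Wald test 1933 and 7, no filter on low counts 2207 and 8, and a mean CPM of at least 1 gave 225 and 3, against 0 and 0; leaving out 1 library gave 0 (without mouse 16, for example) to 1692 genes and 0 to 4 members (without mouse 21), and a member median of -0.36 (mouse 16) to -0.019 (mouse 19), against -0.22. For ascorbate against PBS knockdown, 347 genes (2.86%) and 4 members (8.89%) were called in the main fit. The Wald test gave 1339 genes (11%) and 11 members (24.4%), and limma voom 1105 (9.1%) and 12 (26.7%). No filter gave 1498 genes (6.59%) and 13 members (27.7%). Only the groups compared gave 855 genes (7.22%) and 5 members (11.4%), and the length and GC offset 542 (4.57%) and 3 (6.67%). Leaving out 1 library gave 2 (mouse 28) to 796 genes (mouse 21), 0 to 5 members and a member median of -0.96 to -0.25. Scaled by library totals, higher genes made up 21.7% of the calls, against 38% with TMM, and the median of all genes moved by -0.11. For the Tet2-restored against the ascorbate group, 1 gene and 0 members were called in the main fit. The Wald test gave 445 genes (3.67%) and 2 members (4.44%), and no filter 582 (2.56%) and 4 (8.51%). Limma-trend on FPKM gave 3 genes with either 0.1 or 1 added. All 8 libraries gave 3 genes, the length and GC offset 3 and only the groups compared 0. Leaving out 1 library gave 0 to 5 genes and a member median of 0.037 (mouse 30) to 0.64 (mouse 28); a group left with 1 library is taken to have the same spread as the rest. The cause of these shifts was not tested. The primary library's member median was -1.56 with DESeq2 size factors or on log2(FPKM + 0.1), against -1.55. Low counts limit Mx1, Mx2, Ifit3, Zbp1, Rsad2 and Ifi44. No paired analysis was possible because the groups share no replicate numbers, each library being from a different mouse.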
